A study of Mus musculus with 36 samples.

Results

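Complement genes were followed in alveolar macrophages (AΦ) and lung monocytes of mice that breathed filtered air (FA) or concentrated PM2.5, fine particulate matter of ambient air. The 8 genes were C1qa, C1qb, C1qc, C3, C3ar1, C5ar1, Cfp and Cfb, taken by their symbols from a table of 27562 genes. All 8 had a value in each of the 36 libraries. They were chosen by name and not by their values, although earlier results of these data were known.

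Complement is a set of plasma and cell surface proteins that tag particles and dying cells for uptake and recruit leukocytes. C1q, built of an A, a B and a C chain, recognises antibody complexes and dying cells at the start of the classical pathway. C3 is the central component that every activation route cleaves. Factor B (Cfb) is the protease of the alternative pathway convertase, and properdin (Cfp) stabilises that convertase. The small fragments released during activation act on the receptors C3aR (C3ar1) and C5aR1 (C5ar1). C1q is unusual among complement components in being made largely by macrophages and dendritic cells rather than by the liver.

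The mice were male C57BL/6J hosts carrying CD45.2, irradiated as young adults with the chest shielded, given busulfan and transplanted with marrow of B6.SJL-Ptprca Pepcb/BoyJ donors carrying CD45.1, and this held for FA and PM2.5 mice alike. CD45.2 AΦ are therefore resident cells of the host lung (TR-AΦ) and CD45.1 AΦ came from the donor marrow (BM-AΦ). AΦ were sorted as CD64+CD11c hi CD11b lo cells, and monocytes as CD11b hi CD64 lo cells without Ly6G and MHC II, after exposures of 4-weeks or 32-weeks. The 12 groups of 3 libraries each were TR-AΦ and CD45.2 monocytes at 4-weeks, and TR-AΦ, BM-AΦ and monocytes of either origin at 32-weeks, each from FA and from PM2.5 mice. By the study's methods 3 mice were drawn for each exposure and time, so the populations of 1 exposure and time come from the same mice, but no source says which libraries share a mouse. At 4-weeks only CD45.2 cells were sequenced. The labels give the later monocytes only a number, and the study's supplement ties such numbers to an origin for AΦ alone (1 for CD45.1, 2 for CD45.2), and the monocytes were assigned by the same key, which no source states for them. By design the shielded lung kept its CD45.2 myeloid cells, while those of the blood were replaced from CD45.1 marrow.

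Values are FPKM, fragments scaled by transcript length and by the fragments mapped in the library, as deposited, and their sum in a library lay between 1839577 and 3339020. No counts were analysed, and the depth behind each value is not known from the FPKM themselves. Summed over 12 AΦ markers (Siglecf, Chil3, Car4 and others), AΦ libraries had between 7023 and 14729 FPKM and monocyte libraries between 290 and 1745. Summed over 6 markers of classical monocytes (Ly6c2, Ccr2 and others), AΦ had between 2.77 and 98.04 FPKM and monocytes between 768 and 2636, so both cell types carried the markers of their labels. Replicate 2 of the monocytes at 4-weeks stood apart in both exposures. Its summed FPKM over 9 neutrophil markers was 408 in FA and 1158 in PM2.5, where the other 4 libraries of these groups had between 71.9 and 87.8. Replicate 2 of TR-AΦ from PM2.5 mice at 4-weeks had 213 FPKM over 11 interstitial macrophage markers, where the other 17 AΦ libraries had between 12.7 and 92.4. Replicate 2 of TR-AΦ at 4-weeks also had the most classical monocyte markers of all AΦ, with 98.04 FPKM in FA and 79.1 FPKM in PM2.5, where the other 16 had between 2.77 and 44.0. For comparisons with a 4-week group, the C1q chains and C3ar1 are therefore also given without replicate 2 of all 4 groups of that time point, a choice made after seeing the data, apart from the test of whether a PM2.5 effect changed with time.

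The 3 C1q genes lie side by side on the minus strand of chromosome 4 within 18.7 kb (mm10, GENCODE vM21). C1qb (ENSMUSG00000036905.8) spans chr4:136880129-136886187, C1qc (ENSMUSG00000036896.5) chr4:136889804-136893065 and C1qa (ENSMUSG00000036887.5) chr4:136895917-136898803. C3ar1 (ENSMUSG00000040552.8) spans chr6:122847138-122856161 and C5ar1 (ENSMUSG00000049130.6) chr7:16246743-16259540. C3 (ENSMUSG00000024164.15) spans chr17:57203970-57228136, Cfb (ENSMUSG00000090231.10) chr17:34856374-34862518 and Cfp (ENSMUSG00000001128.7) chrX:20925454-20931555, all on the minus strand too. The readthrough gene Gm20547 shares 6107 of the 6145 bases of Cfb. The deposited table gave Cfb, C2 and Gm20547 1 common locus, and how the authors' counting split reads among them is not given in the sources used here, so values of Cfb are uncertain. Gm20547 was listed at 0 in 35 of 36 libraries and C2 never passed 0.818 FPKM.

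Since C1qb, C1qc and C3ar1 varied together across the libraries, as described below, the bases just upstream of these genes are shown, with those of C3, which did not follow them, for contrast. RefSeq (GRCm38.p6) promoter windows matched 6 of the 8 genes. Each line gives the gene strand from 5′ to 3′, limited to bases upstream of every annotated transcript of the gene, and capitals mark matches of 4 motifs searched on both strands. These were GAGGAA (the core bound by PU.1), TGANTCA (AP-1), the interferon response element (GAAA, any 2 bases, GAAA) and TTGCNNAA (C/EBP).
C1qb, chr4:136886201-136886450: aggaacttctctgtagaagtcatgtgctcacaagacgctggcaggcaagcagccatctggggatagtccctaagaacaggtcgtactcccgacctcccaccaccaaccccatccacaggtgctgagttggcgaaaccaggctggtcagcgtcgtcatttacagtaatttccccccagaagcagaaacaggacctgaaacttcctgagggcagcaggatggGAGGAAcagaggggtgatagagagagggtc
C1qc, chr4:136893066-136893164: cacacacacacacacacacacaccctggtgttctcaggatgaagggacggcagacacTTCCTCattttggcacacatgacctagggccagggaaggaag
C3ar1, chr6:122856162-122856407: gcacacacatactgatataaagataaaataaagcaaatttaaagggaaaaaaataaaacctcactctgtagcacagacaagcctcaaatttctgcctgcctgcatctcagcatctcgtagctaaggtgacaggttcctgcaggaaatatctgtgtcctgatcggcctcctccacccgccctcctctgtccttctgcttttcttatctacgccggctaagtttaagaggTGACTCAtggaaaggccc
C3, chr17:57228137-57228386: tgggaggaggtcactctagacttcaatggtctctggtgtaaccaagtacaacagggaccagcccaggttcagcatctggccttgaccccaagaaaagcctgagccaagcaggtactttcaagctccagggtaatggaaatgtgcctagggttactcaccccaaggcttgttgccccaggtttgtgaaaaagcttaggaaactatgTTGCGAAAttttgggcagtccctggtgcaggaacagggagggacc
The window of C1qb held 1 PU.1 core, and the shorter window of C1qc held 1 PU.1 core on the opposite strand. The window of C3ar1 held 1 AP-1 motif, which reads the same on both strands. That of C3 held 1 C/EBP motif. None of these matches overlapped another, and none of the 4 windows held the interferon motif. Of 32851 promoters, 23.3% held the PU.1 core, 6.75% the AP-1, 2.98% the interferon and 9.56% the C/EBP motif in windows of 250 bases, and 9.91% held the PU.1 core in windows of 99 bases. These matches describe letters only. The upstream windows of C5ar1 (48 bases) and Cfp (250 bases) held none of the 4.

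By group means, C1q transcripts were most abundant in CD45.2 monocytes at 32-weeks, next in CD45.1 monocytes, and lowest in TR-AΦ of the same time point. C1qa, the A chain, was 1206, 671 and 334 FPKM in the CD45.2 monocytes of FA mice and 487, 1032 and 314 FPKM in those of PM2.5 mice at 32-weeks. In CD45.1 monocytes it was 418, 118 and 126 FPKM with FA and 203, 359 and 120 FPKM with PM2.5. The ranges of these 2 kinds of monocytes overlapped. In TR-AΦ at 32-weeks C1qa was 13.7, 9.66 and 24.1 FPKM with FA and 9.68, 7.995 and 14.1 FPKM with PM2.5. These values lay below every 32-week monocyte library, and the share of all genes that separate so is not given. BM-AΦ had 126, 15.5 and 69.0 FPKM with FA and 69.8, 44.3 and 64.6 FPKM with PM2.5, so that 5 of 6 BM-AΦ libraries lay above all 6 TR-AΦ libraries.

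At 4-weeks the levels of C1qa in both cell types ran into each other. TR-AΦ had 37.1, 14.5 and 79.2 FPKM with FA and 46.6, 19.1 and 197 FPKM with PM2.5, the highest of these being the library with the interstitial markers. CD45.2 monocytes had 167, 60.4 and 0.780 FPKM with FA and 112, 55.4 and 0.9998 FPKM with PM2.5, and the lowest value in each is the replicate 2 with the neutrophil markers. Both other chains were as low there, with 1.20 and 0.956 FPKM for C1qb and 0.576 and 1.07 FPKM for C1qc. Of the 9 neutrophil markers, S100a8 was at 46.7 and 169 FPKM in these 2 libraries, and Ly6g was listed at 0 in FA and Camp in PM2.5. Other marker sums also stood apart in these libraries. Over 6 dendritic cell markers they had 14.5 and 11.3 FPKM, against 46.3 to 99.5 in the other monocyte libraries of 4-weeks. Over 5 non-classical monocyte markers they had 3464 and 3673 FPKM, against 2035 to 2599.5 there. The part of any of these cells in the low C1q values was not tested.

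The chains kept close to each other. Across all 36 libraries the FPKM of C1qb was between 0.301 and 1.53 times that of C1qa, with a median of 0.799, and that of C1qc between 0.533 and 1.07 times, with a median of 0.724, while C1qa itself ran from 0.780 to 1206 FPKM. On the log2(FPKM + 1) scale, C1qa and C1qc had a Pearson r of 0.99 over 18 AΦ libraries and 0.998 over 18 monocyte libraries. C3ar1, the receptor of the C3a fragment, followed them, with r of 0.93 (Spearman 0.94) to the mean of the 3 chains in AΦ and 0.92 (Spearman 0.92) in monocytes. Leaving out the 2 libraries farthest from the median gave 0.91 and 0.92. C3 had r of -0.01 (Spearman 0.05, and 0.21 without the 2 farthest) to the chains in AΦ and -0.51 (Spearman -0.81, and -0.84) in monocytes. These coefficients describe libraries that share groups and marker levels.

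**Figure D1:**
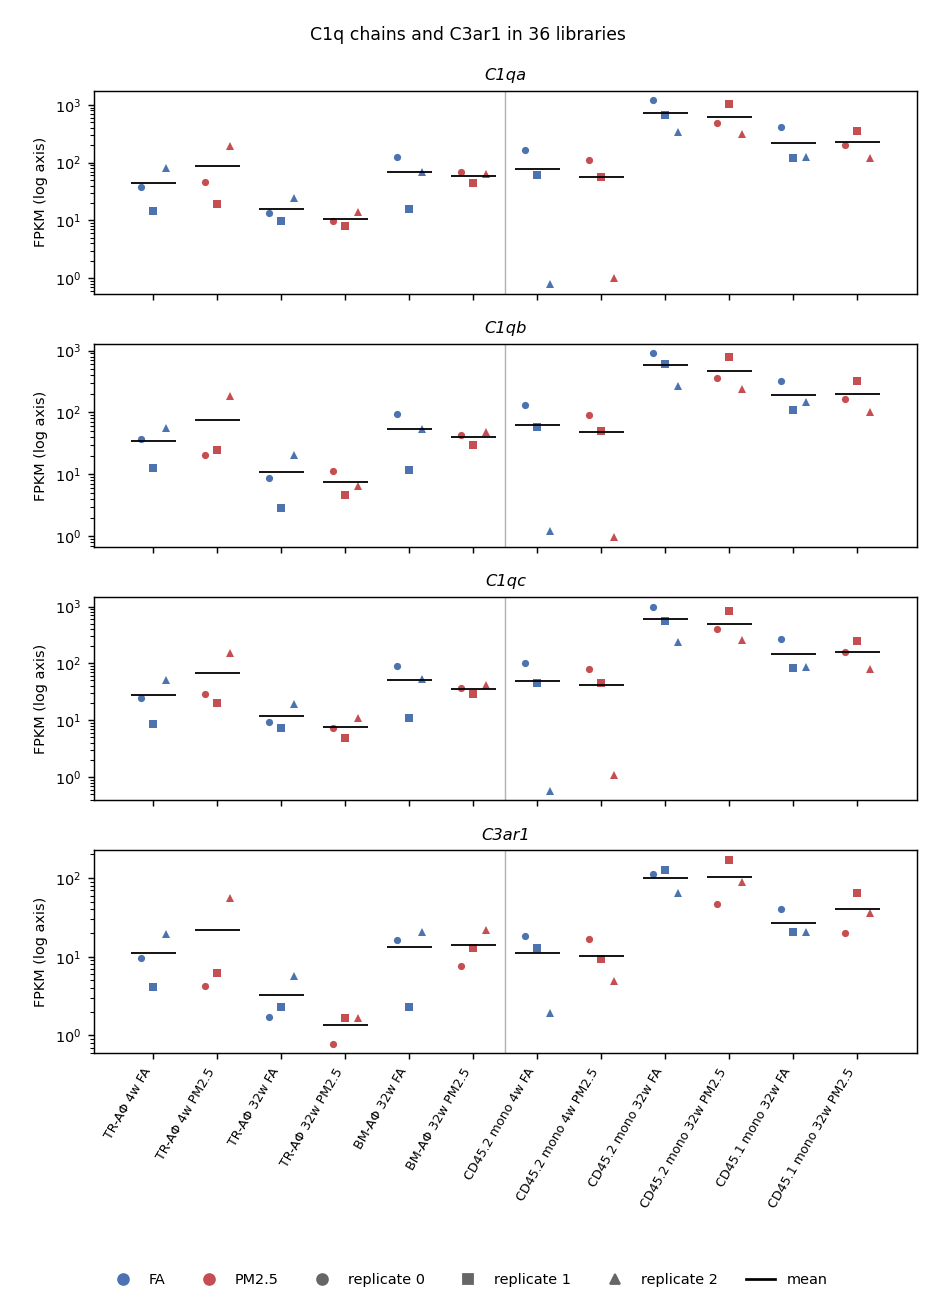
FPKM of C1qa, C1qb, C1qc and C3ar1 (log axes) in the 12 groups, with 1 point per library and a bar for the group mean. The highest values of all 4 genes are in CD45.2 monocytes at 32-weeks, and the triangles of the monocytes at 4-weeks show the replicates 2 with C1qa at 0.780 and 0.9998 FPKM.

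C3ar1 was 113, 126 and 64.8 FPKM in CD45.2 monocytes at 32-weeks with FA and 46.8, 172 and 89.0 FPKM with PM2.5. In CD45.1 monocytes it was 40.7, 20.6 and 20.4 FPKM with FA and 19.8, 65.0 and 35.6 FPKM with PM2.5. TR-AΦ at 32-weeks held little of this receptor transcript, with 1.70, 2.27 and 5.73 FPKM with FA and 0.783, 1.67 and 1.65 FPKM with PM2.5. The 2 populations of TR-AΦ and CD45.2 monocytes did not overlap, which is also given without the share over all genes. BM-AΦ had 16.5, 2.29 and 20.9 FPKM with FA and 7.55, 12.8 and 21.7 FPKM with PM2.5. At 4-weeks C3ar1 lay between 4.11 and 55.8 FPKM in TR-AΦ and between 1.93 and 18.3 FPKM in CD45.2 monocytes, and again the highest TR-AΦ library was replicate 2 of the PM2.5 mice and the lowest monocyte library replicate 2 of the FA mice.

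The level of C3, the component on which all pathways converge, was higher in monocytes than in AΦ throughout. It ran from 58.2 to 155 FPKM in the 18 monocyte libraries, with a median of 86.2. In the 18 AΦ libraries it ran from 12.98 to 52.8 FPKM, with a median of 26.5. The cell types thus did not overlap, a description given without the share over all genes. The order was opposite for Cfb, the protease of the alternative pathway, with 8.71 to 39.8 FPKM in AΦ (median 17.0) and 1.84 to 12.05 FPKM in monocytes (median 6.71). C5ar1, the main receptor of the C5a fragment, had between 208 and 355 FPKM in AΦ (median 247) and between 50.9 and 242 FPKM in monocytes (median 94.8), and only 1 monocyte library, replicate 2 of PM2.5 mice at 4-weeks, lay above 208. Properdin (Cfp) was between 21.0 and 41.0 FPKM in AΦ (median 30.7) and between 22.1 and 78.9 FPKM in monocytes (median 38.0). Among the 11 neighbouring pairs of groups ordered by mean, at most 1 pair had ranges that did not overlap, for each of the 8 genes.

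**Figure D2:**
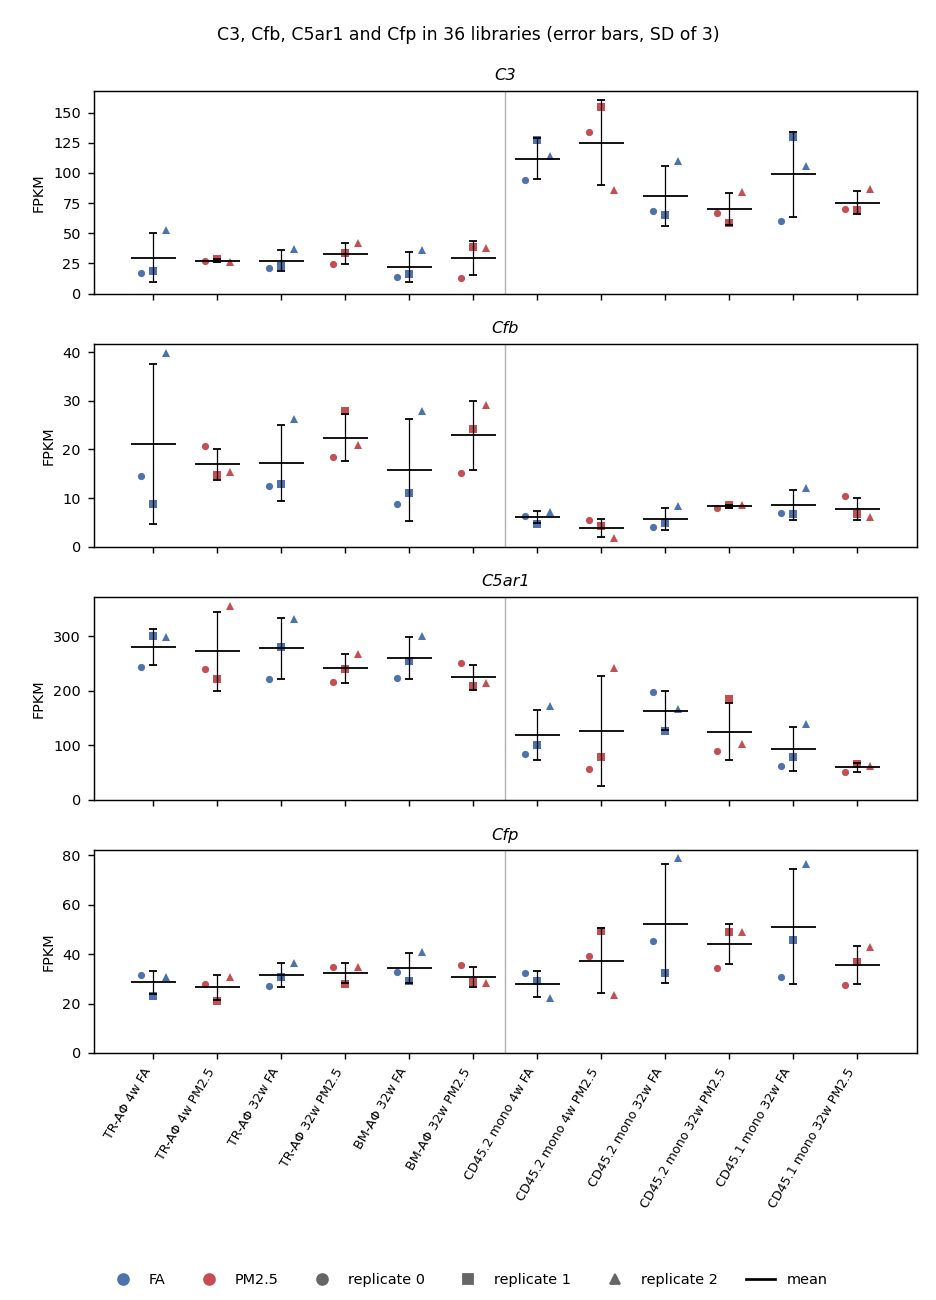
FPKM of C3, Cfb, C5ar1 and Cfp (linear axes from 0) in the 12 groups, with 1 point per library, the mean and the SD of 3 libraries. C3 lies higher in every monocyte library than in any AΦ library, Cfb and C5ar1 lie mostly higher in AΦ, and Cfp is at a like level in both.

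The cell types were compared within each origin and time point to ask how the sorted populations differ in complement transcripts, using limma on log2(FPKM + 1) with Benjamini-Hochberg adjustment over 13307 genes. In CD45.2 cells at 32-weeks all 8 genes differed, where 47.3% of all genes tested did (23.6% higher and 23.7% lower in TR-AΦ). C1qa, C1qb and C1qc were lower in TR-AΦ by log2 fold changes of -5.47 ± 0.90 (SE), -5.74 ± 0.87 and -5.58 ± 0.86, with adjusted p of 1.242e-05, 3.951e-06 and 4.361e-06 in limma. C3ar1 was lower by -4.97 ± 0.57 (adjusted p = 3.681e-08 in limma) and C3 by -1.30 ± 0.29 (adjusted p = 0.000433 in limma). Cfb was higher in TR-AΦ by 1.36 ± 0.30 and C5ar1 by 0.88 ± 0.26, with adjusted p of 0.000472 and 0.0065 in limma. Cfp was lower by -0.53 ± 0.21 with an adjusted p of 0.0421 in limma, and its ranges overlapped. For Cfp this call was lost in 7 of 12 fits that left out 1 library, namely replicates 0 and 1 of FA and replicates 1 and 2 of PM2.5 among TR-AΦ, and replicate 2 of FA and replicates 1 and 2 of PM2.5 among monocytes, with log2 fold changes between -0.67 and -0.35 over all 12 and adjusted p up to 0.166 in limma. Fewer cells that express a gene and less RNA per cell cannot be told apart in such sorted bulk samples.

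The monocytes in which the C1q chains and C3ar1 were highest also carried the most transcripts of interstitial macrophages. Summed over 11 markers (Cd163, Lyve1, Folr2 and others, with Cx3cr1 also a marker of non-classical monocytes), CD45.2 monocytes at 32-weeks had between 591 and 1247 FPKM, CD45.1 monocytes between 347 and 420, CD45.2 monocytes at 4-weeks between 321 and 409, and TR-AΦ at 32-weeks between 12.7 and 38.1. All 11 markers had a mean of at least 1 FPKM in CD45.2 monocytes at 32-weeks of both exposures, and none of them was at 0 there. Cd163, a haemoglobin scavenger receptor that marks resident tissue macrophages, was between 29.3 and 130 FPKM in these 6 libraries and between 2.60 and 5.45 FPKM in CD45.1 monocytes. Folr2 was between 10.7 and 26.3 FPKM against 0 to 1.66. The part of such macrophages in the C1q and C3ar1 values was not tested. Over the 18 AΦ libraries the mean log2 of the 3 chains and the log2 of the marker sum had r of 0.93 (Spearman 0.91, and 0.91 without the 2 farthest libraries). Over the 18 monocyte libraries r was 0.66 (Spearman 0.80, and 0.87 without the 2 farthest, which are the replicates 2 of 4-weeks). Other marker sums moved with the chains as well. In AΦ these included the classical monocyte (r = 0.87, Spearman 0.91, and 0.83 without the 2 farthest) and the dendritic cell markers (0.77, 0.74 and 0.65). The non-classical monocyte (0.70, 0.77 and 0.65) and B cell markers (0.64, 0.58 and 0.66) followed. In monocytes the neutrophil markers ran the opposite way, with r of -0.92 (Spearman -0.82, and -0.73), as did 5 non-classical monocyte markers, with -0.74 (Spearman -0.71, and -0.57). T cell markers (-0.78, Spearman -0.49, and -0.26) and those of mast cells and basophils (-0.71, -0.61 and -0.39) did so too. Classical monocyte markers had -0.17 there (Spearman -0.56, and -0.68). Dendritic cell markers went with the chains in monocytes, at 0.72 (Spearman 0.43, and 0.07). Fibroblast markers did so at 0.61 (Spearman 0.58, and 0.63), with sums of at most 2.87 FPKM. The part of these cells was not tested either.

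**Figure D3:**
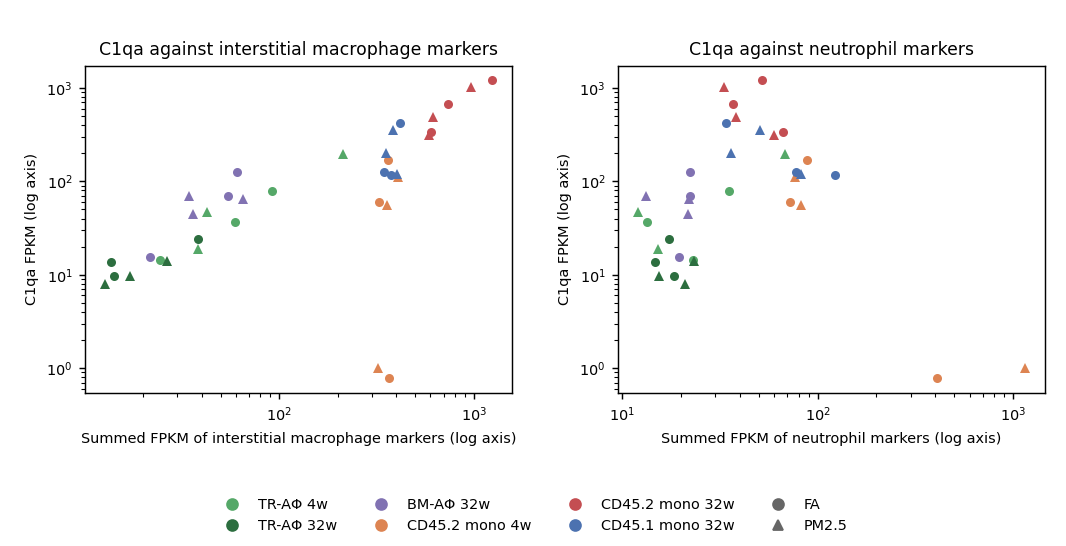
C1qa in FPKM against the summed FPKM of 11 interstitial macrophage markers (left) and of 9 neutrophil markers (right), all on log axes, with 1 point per library. The CD45.2 monocytes at 32-weeks are at the upper right on the left panel (591 to 1247 FPKM of markers), and the 2 monocyte libraries with C1qa at 0.780 and 0.9998 FPKM have 408 and 1158 FPKM of neutrophil markers.

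In CD45.1 cells at 32-weeks 5 of the 8 genes differed between AΦ and monocytes, where 50.9% of all genes did (27.1% higher and 23.8% lower in BM-AΦ). C3 was lower in BM-AΦ by -1.82 ± 0.29 and C5ar1 and Cfb were higher by 1.72 ± 0.26 and 1.07 ± 0.30, with adjusted p of 6.326e-06, 3.713e-06 and 0.00426 in limma. C1qb and C3ar1 were lower by -2.10 ± 0.87 and -1.36 ± 0.57, with adjusted p of 0.0475 and 0.0477 in limma, just inside the threshold. C1qa and C1qc fell outside it, at -1.81 ± 0.90 and -1.85 ± 0.86 with adjusted p of 0.0982 and 0.074 in limma. The C1qb call was lost without each of 9 libraries (all but replicate 0 of FA among BM-AΦ and replicate 1 of FA and replicate 2 of PM2.5 among monocytes), with log2 fold changes between -2.41 and -1.68 over the 12 fits. The C3ar1 call was lost without each of 8 (replicate 1 of FA and replicates 0 and 1 of PM2.5 among BM-AΦ, and all but replicate 0 of PM2.5 among monocytes), with values between -1.62 and -0.93.

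At 4-weeks 3 of the 8 genes differed between TR-AΦ and CD45.2 monocytes, where 48.2% of all genes did (22.6% higher and 25.5% lower in TR-AΦ). C3 was lower in TR-AΦ by -2.08 ± 0.29 (adjusted p = 7.441e-07 in limma), and Cfb and C5ar1 were higher by 1.67 ± 0.30 and 1.33 ± 0.26 (adjusted p = 3.723e-05 and 0.000121 in limma). The C1q chains did not pass, with 0.87 ± 0.90 for C1qa, 0.71 ± 0.87 for C1qb and 0.72 ± 0.86 for C1qc, and C3ar1 had 0.24 ± 0.57. Without replicate 2 of the 4-week groups the sign turned and the chains passed, which made 6 genes. They were at -1.72 ± 0.60 for C1qa, -1.76 ± 0.61 for C1qb and -1.73 ± 0.59 for C1qc, with adjusted p of 0.0234, 0.0236 and 0.0206 in limma. C3ar1 did not pass, at -1.15 ± 0.52 (adjusted p = 0.0816 in limma). The share of all genes called in that fit is not given, so the 6 cannot be set against the 48.2%. The sign of the 3 chains also turned when only replicate 2 of FA or of PM2.5 among monocytes was left out, to between -0.19 and -0.01, with no call.

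The next question was how the CD45.2 populations differed between the time points. In CD45.2 monocytes 4 of the 8 genes were higher at 32-weeks, where 14.9% of 12856 genes differed, 7.06% being higher and 7.83% lower. C1qa had a mean of 674 ± 372 FPKM (SD, n = 6) at 32-weeks and 66.2 ± 64.9 FPKM (n = 6) at 4-weeks, and this was a log2 fold change of 4.58 ± 1.08 (SE), with an adjusted p of 0.0105 in limma. C1qb rose by 4.31 ± 1.01, C1qc by 4.59 ± 1.01 and C3ar1 by 3.27 ± 0.48, with adjusted p of 0.0101, 0.00721 and 0.000635 in limma. The groups did not overlap for any of these 4 genes, a description given without the share over all genes. Without replicate 2 of the 4-week groups the differences were smaller and still passed, at 2.72 ± 0.53, 2.57 ± 0.49, 2.86 ± 0.52 and 2.66 ± 0.40 for C1qa, C1qb, C1qc and C3ar1, with adjusted p of 0.00868, 0.00746, 0.00636 and 0.00263 in limma. Of the 11 interstitial macrophage markers, 10 were tested and 9 were higher at 32-weeks. The non-classical monocyte markers moved the other way, from between 2035 and 3673 FPKM in the 6 libraries of 4-weeks to between 581 and 1476 FPKM in the 6 of 32-weeks, without overlap. The part of either in the C1q values was not tested. The other members gave -0.65 ± 0.21 for C3 (adjusted p = 0.0531 in limma), 0.35 ± 0.33 for C5ar1, 0.54 ± 0.26 for Cfp and 0.46 ± 0.22 for Cfb. C3 passed when replicate 2 of PM2.5 at 4-weeks, of FA at 32-weeks or of PM2.5 at 32-weeks was left out, at -0.77, -0.77 and -0.72.

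In TR-AΦ no member passed the test of 32-weeks against 4-weeks, in which 0.782% of 12665 genes differed with FA and 1.05% with PM2.5. With PM2.5, the 3 chains and C3ar1 had log2 fold changes of -2.34 ± 0.82, -2.55 ± 0.89, -2.46 ± 0.81 and -2.47 ± 0.86, with adjusted p of 0.194, 0.192, 0.167 and 0.192 in limma, and these 4 had an unadjusted p under 0.05. The groups of 3 did not overlap for these genes, but the share of all genes without overlap is not given, so this is a description only. Without replicate 2 of the 4-week groups, which takes out the library with the interstitial markers, they were between -1.59 and -1.40. With FA the 4 genes had -1.20 ± 0.82, -1.72 ± 0.89, -0.95 ± 0.81 and -1.41 ± 0.86, with 0 members at an unadjusted p under 0.05 in limma, and without replicate 2 of the 4-week groups they were smaller, at -0.62, -1.27, -0.38 and -0.92.

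The difference between TR-AΦ and CD45.2 monocytes itself changed from 4-weeks to 32-weeks for 4 of the 8 genes, where 7.88% of 13307 genes did. This interaction was -6.35 ± 1.28 for C1qa, -6.45 ± 1.24 for C1qb, -6.30 ± 1.21 for C1qc and -5.21 ± 0.80 for C3ar1, with adjusted p of 0.00191, 0.00123, 0.00126 and 0.000144 in limma. It uses the libraries of the comparisons above and is no separate evidence. Without replicate 2 of the 4-week groups it was -3.75 ± 0.77, -3.98 ± 0.79, -3.85 ± 0.76 and -3.82 ± 0.67, and all 4 still passed.

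BM-AΦ were set against TR-AΦ at 32-weeks to ask whether origin matters within AΦ. No member passed in limma, where 0.316% of 12665 genes did, while 4 had an unadjusted p under 0.05. These were the chains C1qa (2.07 ± 0.58, from means of 64.8 ± 36.3 and 13.2 ± 5.85 FPKM, n = 6 each), C1qb (2.23 ± 0.63) and C1qc (1.93 ± 0.58), and C3ar1 (2.02 ± 0.61), with adjusted p of 0.231, 0.231, 0.277 and 0.283 in limma. The 95% intervals of the 4 ran from 0.69 at the lowest to 3.58 at the highest. The calls depended on how the replicate number was used. As a block shared by the exposures, it gave the 3 chains adjusted p of 0.0191 to 0.0355 in limma. As a block within each exposure and time, it gave them 0.194 to 0.287 in limma. C3, C5ar1, Cfp and Cfb were within 0.33 of 0 on the log2 scale. Markers of other cells moved with origin too, with 8.93 to 29.8 FPKM over 6 dendritic cell markers in BM-AΦ against 1.46 to 4.86 in TR-AΦ, and 9.78 to 44.0 FPKM over 6 classical monocyte markers against 2.77 to 10.4. Their part in the C1q values was not tested.

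Between CD45.2 and CD45.1 monocytes at 32-weeks no member passed in limma, where 0.669% of 12856 genes did (0.591% higher and 0.0778% lower in CD45.2 cells). C3ar1 and C5ar1, both receptors, had an unadjusted p under 0.05, with 1.58 ± 0.48 and 0.93 ± 0.33 and adjusted p of 0.201 and 0.322 in limma. The chains were at 1.60 ± 1.08, 1.41 ± 1.01 and 1.81 ± 1.01 for C1qa, C1qb and C1qc. Their 95% intervals, from -0.75 to 3.97, cover both no difference and a large one.

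**Figure D4:**
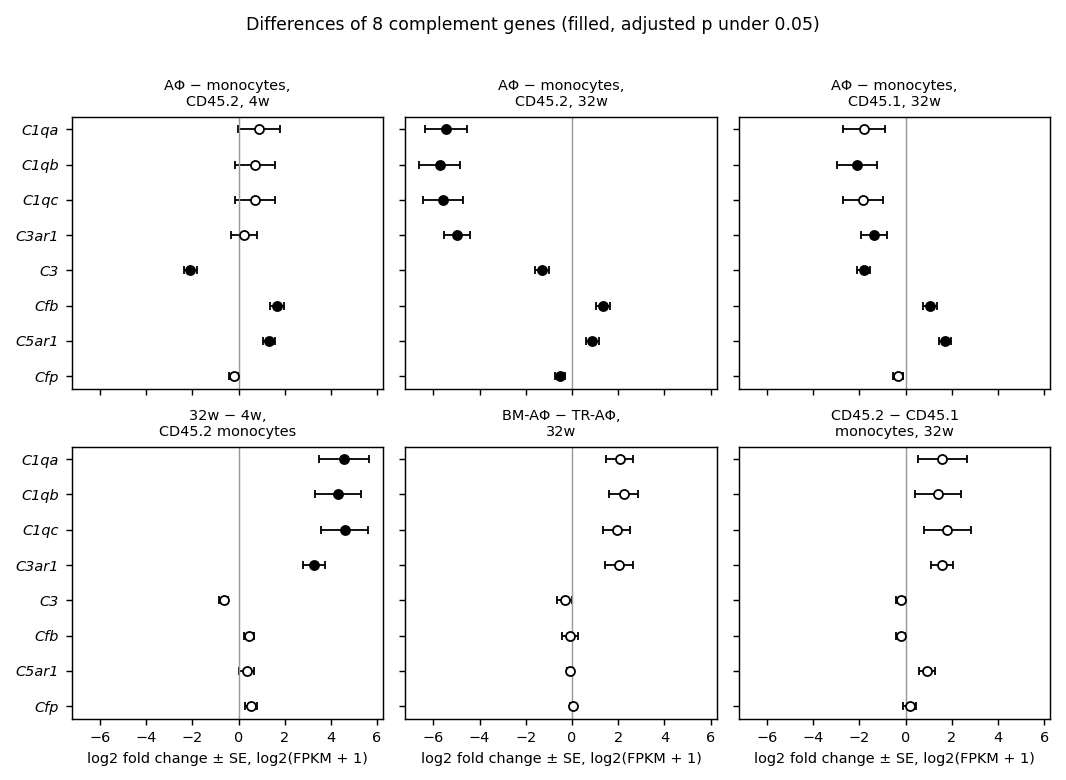
Log2 fold changes on the log2(FPKM + 1) scale with their SE for the 8 genes in 6 comparisons, each panel naming the first group minus the second. Filled points passed an adjusted p of 0.05 in limma. The C1q chains and C3ar1 lie at -5.74 to -4.97 in the CD45.2 cells at 32-weeks and at 3.27 to 4.59 in the CD45.2 monocytes over time.

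PM2.5 was compared with FA in each of the 6 cell populations. No member passed in any of them, with an adjusted p of 1 in limma throughout and 0 unadjusted p under 0.05, where 0.00790%, 0% and 0.0158% of all genes passed in TR-AΦ at 4-weeks, TR-AΦ at 32-weeks and BM-AΦ, and 0.00778%, 0% and 0% in monocytes at 4-weeks, then in CD45.1 and last in CD45.2 monocytes of the later time point. C5ar1 had the narrowest span, with log2 fold changes from -0.56 to -0.07 that were below 0 in all 6 populations, and Cfp ran from -0.43 to 0.36. Cfb ran from -0.61 to 0.63, and its lowest value, in monocytes at 4-weeks (3.86 ± 1.87 FPKM with PM2.5 and 6.07 ± 1.20 FPKM with FA, n = 3 each, log2 fold change -0.61 ± 0.32), had the smallest unadjusted p of the 48 tests, 0.0765 in limma. It was -0.26 without replicate 2 of PM2.5, the library with the most neutrophil markers, and -0.16 ± 0.33 without replicate 2 of the 4-week groups. C3 ran from -0.32 to 0.39.

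Only C3ar1 in TR-AΦ at 32-weeks had no overlap between the exposures, all 3 PM2.5 libraries being below the 3 FA libraries. The gap was small, with 1.67 FPKM as the highest PM2.5 value and 1.70 FPKM as the lowest FA value. The share of all genes without overlap is not given, so this is a description only. The log2 fold change of C3ar1 there was -0.74 ± 0.86. It was -0.35 without replicate 2 of FA and between -1.01 and -0.55 without any 1 of the other 5 libraries. For the C1q chains the effects ran from -0.54 to 0.98, and their 95% intervals from -3.52 to 3.43, which cover both no effect and several-fold ones. The widest came from the monocyte fit, where the SE of C1qa at 4-weeks was 1.53 with and 0.83 without replicate 2 of that time point. Without these libraries, the effects at 4-weeks on C1qa, C1qb, C1qc and C3ar1 went from 0.67, 0.61, 0.98 and 0.31 to 0.35, 0.07, 0.67 and -0.26 in TR-AΦ, and from -0.18, -0.30, 0.02 and 0.15 to -0.35, -0.36, -0.17 and -0.29 in monocytes. C3 and Cfb in TR-AΦ went from 0.07 and -0.05 to 0.59 and 0.57, and no adjusted p was under 1 in limma. The tests of whether the PM2.5 effect differed between time points or between origins of AΦ gave 0 calls among the members, with 0 unadjusted p under 0.05 in limma. Of all genes, 0.00790% passed the first and 0.0158% the second.

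Around these 8 genes, 47 other complement genes were listed, of which 14 reached the mean of 1 FPKM needed for a test in at least 1 model. The terminal components C6, C7, C8 and C9, C5 itself (Hc), factor D (Cfd) and the mannose-binding lectins did not pass it. In CD45.2 monocytes 8 of 13 tested were higher and 1 was lower at 32-weeks, where 7.06% of all genes were higher and 7.83% lower, with C4b, the fourth component, at 2.04 ± 0.28, the decay accelerating regulator Cd55 at 1.92 ± 0.33, the scavenger lectin Colec12 at 1.92 ± 0.25 and the ficolin Fcna at 1.503 ± 0.27, with adjusted p of at most 0.00218 in limma. The integrin chain Itgb2 was lower by -1.07 ± 0.16. C4b, Cd55 and Colec12 were the 3 of 13 that were higher in CD45.2 than in CD45.1 monocytes, where 0.591% of all genes were. Their values were 1.59 ± 0.28, 2.15 ± 0.33 and 2.202 ± 0.25 (adjusted p of at most 0.0162 in limma). This comparison uses the same CD45.2 libraries of 32-weeks as that over time and is no separate evidence. The median over the 13 was 0.87 between times and 0.24 between origins, and over all genes tested -0.05 and 0.00. Cd55, Colec12 and Fcna averaged 5.48, 6.30 and 3.27 FPKM in CD45.2 monocytes at 32-weeks. In CD45.1 monocytes they averaged 0.38, 0.51 and 0.98 FPKM, and in those of 4-weeks 0.60, 0.87 and 0.62. They thus reached the mean of 1 FPKM only through the group where they were high. The filter therefore favours higher calls, so these counts and medians cannot be set against those of all genes. For the same reason the fold changes and adjusted p of Cd55, Colec12 and Fcna describe that group only. They are no test of time or origin.

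Between AΦ and monocytes 7 of 14 other complement genes were higher and 6 lower in TR-AΦ at 32-weeks, 7 higher and 3 lower in BM-AΦ, and 6 higher and 4 lower in TR-AΦ at 4-weeks. Of all genes, 47.3%, 50.9% and 48.2% differed in these 3 comparisons. C5ar2, the second C5a receptor, was higher in AΦ in each of these 3 comparisons, like C5ar1, by 0.86 ± 0.18, 1.26 ± 0.18 and 1.98 ± 0.18. C1ra, a protease that joins C1q in the C1 complex, was higher by 1.63 ± 0.16, 2.18 ± 0.16 and 2.11 ± 0.16. Cd93, a surface glycoprotein once taken for a C1q receptor, was lower by -4.52 ± 0.45, -2.58 ± 0.45 and -2.51 ± 0.45. Adjusted p of these 9 values were at most 0.000225 in limma. Itgam and Itgax, the chains of complement receptors 3 and 4, encode CD11b and CD11c, on which the cells were sorted, so their differences carry no result. Itgax is among the higher and Itgam among the lower genes in each count above. C1ra averaged 5.21 to 6.44 FPKM in the AΦ populations and 0.54 to 1.06 FPKM in those of monocytes. It reached the mean needed for a test through AΦ. These counts therefore cannot be set against the shares of all genes, and the fold changes and adjusted p of C1ra are a description only. No other complement gene passed for PM2.5, for time in TR-AΦ or for origin in AΦ in limma.

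The genes whose levels most resembled those of the members were looked up over the 18 libraries of each cell type, as a description. For the mean of the C1q chains they were Abca9 (r = 0.96), Tmem176b (0.96) and Mgl2 (0.95) in AΦ, and Dab2 (0.97), Mrc1 (0.96) and Gatm (0.96) in monocytes. C3ar1 was closest to Gas7 (0.95), Abca9 (0.93) and C1qc (0.93) in AΦ and to Cd63-ps (0.98), Mrc1 (0.97) and Ms4a7 (0.97) in monocytes. In AΦ both C3 and Cfb were close to Cybb (0.86 and 0.82) and Fnip2 (0.85 and 0.82). Without the 2 farthest libraries these were 0.85 and 0.72 for Cybb and 0.86 and 0.82 for Fnip2. C3 and Cfb were also close to each other there (r = 0.86, Spearman 0.85). Their r was 0.88 without the 2 libraries farthest from the median of C3, and 0.78 without those farthest from that of Cfb. In monocytes this pair had an r of -0.14, C3 was closest to Trim30c (0.92), Abcc4 (0.90) and Ikbke (0.88), and Cfb to Rpl39-ps (0.83), Gm9794 (0.80) and Gm10076 (0.79). C5ar1 was closest to Plet1 (0.87), Crebbp (0.86) and Ssh2 (0.85) in AΦ and to Stxbp3-ps (0.91), Sepn1 (0.89) and Il10rb (0.88) in monocytes. Cfp was close to Atp5g3 (0.84) and Gm15361 (0.83) in AΦ and to Nxpe5 (0.90), Tigd2 (0.90) and Tgfbi (0.89) in monocytes. Without the 2 farthest libraries the values for the chains and C3ar1 stayed at 0.89 or above, and those for Cfb in monocytes were 0.67, 0.68 and 0.61.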

How the data were processed

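RNA of FACS-sorted AΦ and monocytes (36 libraries, 3 in each of 12 groups) was sequenced by the authors, who trimmed reads, aligned them to mm10 with STAR and computed the deposited FPKM with Cufflinks, a unit normalised for depth and transcript length in which the number of reads is lost. From these values, log2(FPKM + 1) was analysed with limma 3.58.1 in R 4.3.3, with 1 mean per group, a variance trend and Benjamini-Hochberg adjustment within a comparison at 0.05. A gene was tested where it averaged 1 FPKM or more in the libraries that entered a model, which left 12665 for AΦ, 12856 for monocytes and 13307 for both. A fold change on this scale understates that of low genes. Of symbols on more than 1 row (54), the row with the highest mean was used. The members and lists were chosen with earlier results of these data known. All 8 members were described. Of the other complement genes, the 4 largest called changes in each direction of a comparison could be named, and a gene so named was also given in the other cell type comparisons (C5ar2 at 32-weeks was added after its value was seen), while the genes most like a member were the 3 of highest Pearson r. Some genes that these rules would name are not reported here. Comparisons share libraries where they share groups. Libraries were treated as unpaired, since no source ties a replicate number to a mouse, although populations of 1 exposure and time share their mice. Alternatives were a pseudocount of 0.1, no filter, quantile normalization, median-ratio scaling, only the groups compared, a replicate block and leaving out each library. The procedure was tested on simulated data. Plots were made in Python 3.11.15 (matplotlib 3.10.9).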

Additional observations from a re-analysis of the deposited data

Results flagged for a closer look

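The interaction of cell type and time in CD45.2 cells was picked out by its own test for 4 genes, since the difference between TR-AΦ and monocytes was not the same at 4-weeks and at 32-weeks. Its log2 value was -6.35 for C1qa, -6.45 for C1qb, -6.30 for C1qc and -5.21 for C3ar1. At 4-weeks the differences behind it were 0.87, 0.71, 0.72 and 0.24, and at 32-weeks -5.47, -5.74, -5.58 and -4.97. Without replicate 2 of the 4-week groups the differences at 4-weeks were -1.72, -1.76, -1.73 and -1.15. The interaction was then -3.75, -3.98, -3.85 and -3.82. Groups of 3 libraries are too small for the test of a sample far from the others.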

How the results depend on the processing

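Leaving out 1 library at a time gave between 3 and 5 called members for BM-AΦ against CD45.1 monocytes (5 with all libraries), 7 to 8 for TR-AΦ against CD45.2 monocytes at 32-weeks, and 4 to 5 for the CD45.2 monocytes over time. The first count was also 3 with a pseudocount of 0.1 and with no filter, where C1qb and C3ar1 were lost, and the cause was not tested. For TR-AΦ against CD45.2 monocytes at 4-weeks 3 members were called. Leaving out replicate 2 of all 4-week groups gave 6, for which the share of all genes is not given. In this comparison the log2 fold changes then turned to -1.72 for C1qa, -1.76 for C1qb, -1.73 for C1qc and -1.15 for C3ar1. There the values without 1 library ran from -0.10 to 1.54 for C1qa, from -0.18 to 1.30 for C1qb, from -0.19 to 1.31 for C1qc and from -0.29 to 0.57 for C3ar1, and Cfp (-0.20) turned to 0.012 with quantile normalization, none of them called. No source says that a replicate number marks a mouse or a day. Over all genes, deviations from the group means of same-numbered libraries had correlations from -0.10 to 0.21 when exposures were mixed. In 30 pairs of populations of the same exposure and time they ran from -0.04 to 0.09, and 0 passed 0.1. In 60 pairs of other numbers they ran from -0.15 to 0.13. The median was nonetheless higher for the same number in all 5 comparisons, at 0.023 to 0.054 against -0.025 to 0.002. Summed red cell markers also went with the number. All 8 replicates 2 of 32-weeks had between 17.7 and 85.7 FPKM, and the other 16 libraries between 0 and 19.5. The 4 replicates 2 of 4-weeks had the least of their groups. Summed AΦ markers rose from replicate 0 through 1 to 2 in every group except 1. That group was the CD45.2 monocytes of PM2.5 mice at 32-weeks, with 448, 1745 and 953 FPKM. With a replicate block the members called went from 0 to 3 for TR-AΦ over time with PM2.5 and from 0 to 3 for BM-AΦ against TR-AΦ (the 3 C1q chains in both), and from 0 to 1 (C1qc) for CD45.2 against CD45.1 monocytes, while calls over all genes went from 133 to 408, from 40 to 93 and from 86 to 132. The chains and C3ar1 were higher in BM-AΦ than in TR-AΦ in all 6 same-numbered pairs. Between the monocytes of 32-weeks, the chains, C3ar1 and C5ar1 were likewise higher in CD45.2 cells in all 6. The share of all genes with such pairs is not given, so this is a description only. For BM-AΦ against TR-AΦ, the adjusted p of C1qa, C1qb, C1qc and C3ar1 with the replicate block were 0.0191, 0.0355, 0.0317 and 0.079 in limma. With the number as a block within each exposure and time, chosen after seeing the data, these were 0.262, 0.194, 0.287 and 0.298 in limma, calls over all genes went from 40 to 27 there and from 86 to 224 between the monocytes, and the called members of BM-AΦ against CD45.1 monocytes went from 5 to 3, with C1qb and C3ar1 lost at 0.0599 and 0.056. The count of called members was within 1.5 times of its main value in all 17 comparisons with quantile normalization, with median-ratio scaling and with only the groups compared. FPKM hold no depth, so counting error could not be set beside any value.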
